A study of Macaca fascicularis with 48 samples.

Results

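CCNI encodes cyclin I, and it was the gene with the smallest p-value when ganglia of monkeys given GS-8873 were compared with ganglia of control monkeys. It was chosen by that p-value, so its ganglion difference is given here as a description, and so is anything else that rests on its ganglion libraries. Tests are kept for CCNI in liver and cord and for CCNI2, its close family member. CCNI and CCNI2 were both found in the count table, as 2 of 16842 gene names. GS-8873, in the submitters' words a compound that inhibits the transcripts of hepatitis B virus, was given by oral gavage to cynomolgus monkeys (Macaca fascicularis) over 13 weeks. The daily dose was 6 mg/kg in treated and 0 mg/kg in control monkeys, and the labels name no infection and no other agent. Messenger RNA was sequenced from whole pieces of liver, of cervical, thoracic and lumbar spinal cord, and of cervical and lumbar dorsal root ganglia, with 4 control and 4 treated libraries per tissue, 2 from males and 2 from females in each group. The same 4 control animals gave all 6 tissues. Animal identifiers in the labels put 4 treated animals behind liver and cord and 6 behind the ganglia, 2 of them with both ganglia. Tissues therefore share animals and are not independent replicates of the treatment. Every animal behind liver and cord also gave a ganglion library, so the CCNI tests there are not independent of its choice.

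Cyclins are the partner subunits that switch on cyclin-dependent kinases. Most are made and destroyed with the cell cycle, but cyclin I is an atypical member whose level stays steady through the cycle and which is abundant in cells that no longer divide, neurons among them. It is known to bind and activate CDK5, a kinase that acts mainly in neurons rather than in dividing cells, and in podocytes of the kidney this pair protects the cells from death by way of ERK signalling and BCL2 family proteins. Dorsal root ganglia hold the cell bodies of sensory neurons, each wrapped in satellite glia, beside the cord. In such bulk tissue, fewer cells of a type and less RNA per cell cannot be told apart.

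In the deposited table, built on Macaca_fascicularis 5.0, CCNI lies on the plus strand of chromosome 5 from 57424237 to 57453477, in 7 exon blocks with 3549 exonic bases, and no other gene overlaps it. CCNI2 lies on the plus strand of chromosome 6 from 131737792 to 131743268, in 6 exon blocks with 1152 exonic bases. It shares 399 exonic bases with SEPT8 on the other strand, and the counting did not use strand, so reads of the 2 genes cannot be told apart there. Library totals ran from 35453786 to 53480762 counts, and CCNI held 1944 to 15601 counts in each of the 48 libraries, so counting error is small for it. CCNI2 held 5 to 96 counts in cord libraries, 12 to 31 in ganglion libraries and 0 to 2 in liver libraries. Defining markers matched the labelled tissues, with exceptions in cord. Hepatocyte markers summed to between 294762 and 426518 CPM (counts scaled to library size) in liver and sensory neuron markers to between 3754 and 9574 CPM in ganglia. In lumbar cord 2 libraries, control 1 and treated 1, held almost none of the central myelin marker MOG, at 0.219 and 0.0739 CPM. Their neuron marker sums were low too, 160 and 120 CPM against 881 to 3501 CPM in the others. Astrocyte markers in lumbar cord summed to as little as 48.2 CPM in control and 60.1 CPM in treated libraries. Schwann cell markers there summed to as much as 32124 CPM in control and 23686 CPM in treated libraries, against at most 7262 CPM in ganglia. Fibroblast markers in lumbar cord reached 4809 CPM in control and 2910 CPM in treated libraries. Whether these 2 libraries are cord was not tested. Cervical cord control 1 had a neuron marker sum of 214 CPM, against 1126 to 3241 CPM in the others. In thoracic cord 3 libraries had over 30% mitochondrial counts.

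CCNI was lower in ganglia of treated monkeys than of controls, 2.72-fold in the cervical and 2.40-fold in the lumbar region. In cervical ganglia the control libraries held 277, 266, 267 and 204 CPM of CCNI and the treated ones 101, 104, 83.7 and 77.9 CPM. In lumbar ganglia the control libraries held 243, 233, 219 and 218 CPM and the treated ones 84.3, 89.9, 106 and 99.1 CPM. Every treated library lay below every control library in both regions, as for 3.25% of genes in cervical and 9.24% in lumbar ganglia, and the highest treated value was 106 CPM while the lowest control value was 204 CPM. These levels are on the same TMM scale over all 48 libraries.

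**Figure D1:**
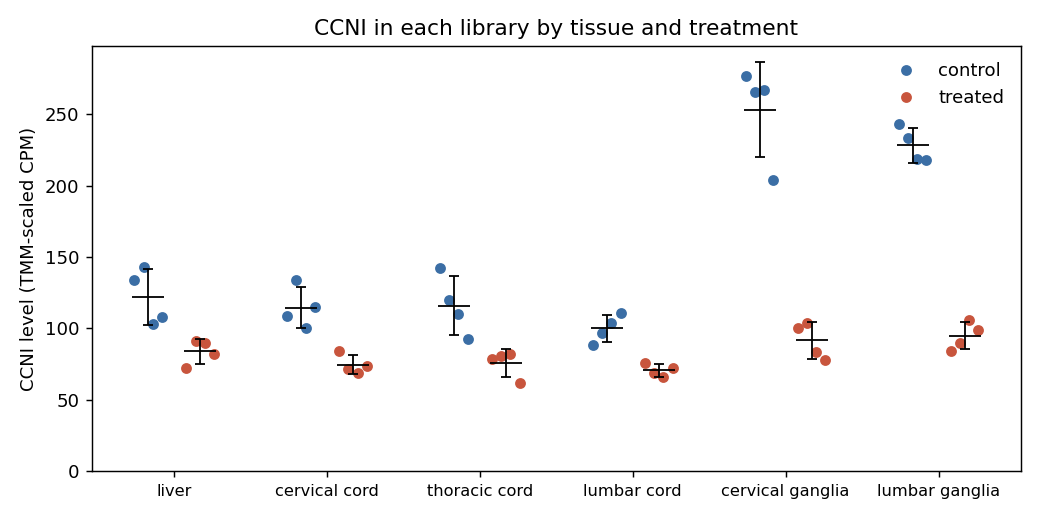
CCNI in TMM-scaled CPM (vertical axis) in each of 48 libraries, by tissue and treatment; points are libraries, the horizontal line is the mean and the bar 1 SD of 4 libraries. Ganglia of control monkeys lie between 204 and 277 CPM, ganglia of treated monkeys between 77.9 and 106 CPM, and in all 6 tissues the treated points lie below the control points.

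Over both regions CCNI averaged 241 ± 26.8 CPM in control libraries and 93.2 ± 10.6 CPM in treated libraries (SD, n = 8 libraries each, from 4 control and 6 treated animals). The log2 fold change was -1.34 ± 0.14 (SE), which leaves 39.4% of the control level. In the regions taken alone it was -1.44 ± 0.15 in cervical and -1.26 ± 0.10 in lumbar ganglia. These values chose the gene and are not offered as a test. For scale, 137 of 14535 genes passed an adjusted p under 0.05 in ganglia of both regions (0.943%), 135 of them lower (0.929%) and 2 higher (0.0138%) in treated animals.

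The genes ranked just after CCNI in that comparison were also lower in treated ganglia, by similar amounts. The adjusted p by limma was 0.000596 for CCNI, 0.00074 for MXRA7, 0.000814 for RHOQ, 0.00297 for CADM3 and 0.0044 for TIMP2. All were picked by p in this comparison, so their ganglion values are a description. Their log2 fold changes were -0.98 ± 0.11 for MXRA7, -1.20 ± 0.14 for RHOQ (a small GTPase), -1.32 ± 0.17 for CADM3 (an adhesion molecule of neurons) and -1.34 ± 0.18 for TIMP2 (an inhibitor of matrix metalloproteinases). In liver the same 4 genes differed by -0.08, -0.14, -0.46 and -1.27, against -0.52 for CCNI, and in cord summed per animal by -0.50, -0.28, -0.66 and -0.59, against -0.57 for CCNI.

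For CCNI the lumbar change minus the cervical change was 0.16 ± 0.13 on the log2 scale, which is given with no test because it comes from the libraries that chose the gene. Over all genes the test of this interaction called 0 of 14535 genes in limma, with or without the animal block, and 416 had an unadjusted p under 0.05.

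Most sensory neuron markers were also lower in treated ganglia. The 11 markers present summed to 4864 to 9443 CPM in control and 4523 to 6499 CPM in treated cervical ganglia, and to 7851 to 9574 CPM in control and 3754 to 7245 CPM in treated lumbar ganglia. Of the 11 markers, 9 were lower in treated animals, with a median log2 fold change of -0.62, and 0 passed the test over both regions, while all 4 satellite glia markers present were higher with a median of 0.23 and 0 passed. In lumbar ganglia alone 7 of the 11 neuron markers were lower and 4 higher, from -1.21 to 0.41 in log2. Of the 11, 2 fell with a call, against 3.65% of genes, UCHL1 by 0.92 and SNAP25 by 1.21 (adjusted p = 0.0378 and 0.0154 in edgeR). All treated libraries lay below all controls for 4 of the 11, as for 9.24% of genes. With a score of the neuron markers added to the fit, the CCNI difference was -1.14, against -1.34 without it. Cervical control library 4, which had the lowest CCNI of any control ganglion, 204 CPM, also had the lowest neuron marker sum among them, 4864 CPM. Single libraries also went the other way. Lumbar treated library 2 had a higher marker sum than that control, 7245 CPM, and less CCNI, 89.9 CPM. The part of the markers in the CCNI difference was not tested beyond this fit.

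Among control monkeys, CCNI was most abundant in ganglia. The control ganglion libraries were among those that chose the gene, so its ganglion levels are set beside the other tissues as a description. Mean control levels were 253 ± 33.4 CPM in cervical ganglia, 228 ± 12.1 CPM in lumbar ganglia, 122 ± 19.6 CPM in liver, 116 ± 20.8 CPM in thoracic cord, 114 ± 14.5 CPM in cervical cord and 99.9 ± 9.55 CPM in lumbar cord (SD, n = 4 each). In edgeR with animal as a block, cervical ganglia exceeded cervical cord by 1.14 ± 0.13 on the log2 scale and lumbar ganglia exceeded lumbar cord by 1.16 ± 0.13. All 4 control animals showed both differences, and these comparisons called 44.2% and 38.9% of 15008 genes, so a difference between ganglion and cord was common among genes. The other 4 pairings of ganglia with cord gave CCNI differences from 0.99 to 1.31, where 51.1% (cervical ganglia against thoracic cord), 34.8% (against lumbar cord), 47.3% (lumbar ganglia against cervical cord) and 52.1% (against thoracic cord) of genes were called.

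Between the 2 ganglion regions lumbar minus cervical was -0.15 ± 0.13, where 0.0400% of genes were called. The 3 cord regions, which the rule did not use, gave no call for CCNI, with log2 differences from -0.17 to -0.05 and adjusted p of 0.515 or more in edgeR, where 23.3% (thoracic against cervical), 0.360% (lumbar against cervical) and 32.6% (lumbar against thoracic) of genes were called. The place of liver in the order depends on the scaling. By TMM the ganglia exceeded liver by 1.10 ± 0.13 (cervical) and 0.94 ± 0.13 (lumbar), and cord differed from liver by -0.22 to -0.04 without a call, while 71.3% to 72.2% of genes were called in each of these 5 comparisons. The lumbar cord difference passed without control animal 4, at -0.33 with an adjusted p of 0.0494 in edgeR. The TMM factors of liver libraries were low, 0.463 to 0.569, and CCNI in CPM of total counts, with no TMM factor, was 53.05 to 67.1 in control liver against 66.7 to 145 in control cord and 249.7 to 317 in control ganglia. The ganglia lie highest on both scales, while liver lies level with cord by TMM and below it by total counts.

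By TMM this order flattened in treated monkeys. Treated ganglia, at 91.5 ± 12.7 and 94.9 ± 9.68 CPM, stood close to treated liver at 84.0 ± 8.69 CPM. Treated cord was close too, with region means from 70.5 to 75.7 CPM. By CPM of total counts, treated liver stayed below treated ganglia. Liver then held 41.2 to 50.9, against 77.8 to 141 in treated cervical and 110 to 143 in treated lumbar ganglia. The flattening follows from the ganglion values that chose the gene and was not tested.

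CCNI was also lower in treated monkeys outside the ganglia, in liver and in each cord region, by 1.43- to 1.53-fold, although no adjusted p passed the threshold across all genes. In liver the control libraries held 134, 143, 103 and 108 CPM and the treated ones 72.4, 91.3, 90.0 and 82.3 CPM. In cervical cord the control libraries held 109, 134, 99.95 and 115 CPM and the treated ones 84.1, 71.4, 68.7 and 73.3 CPM. All 4 treated libraries lay below all 4 controls in both tissues, as they did for 3.16% of genes in liver and 3.20% in cervical cord.

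In thoracic cord the control libraries held 142, 119.7, 109.9 and 92.2 CPM and the treated ones 78.8, 80.5, 82.3 and 61.3 CPM. In lumbar cord the control libraries held 88.5, 96.8, 103 and 111 CPM and the treated ones 75.5, 68.6, 65.7 and 72.2 CPM. Treated libraries again lay below all controls, as for 1.21% of genes in thoracic and 0.627% in lumbar cord. The smallest gap between the groups, in thoracic cord, was from 82.3 to 92.2 CPM.

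The log2 fold change was -0.52 ± 0.12 in liver, with an adjusted p of 0.326 in edgeR. It was -0.61 ± 0.12 in cervical cord (adjusted p = 0.414), -0.60 ± 0.16 in thoracic cord (adjusted p = 0.981) and -0.54 ± 0.15 in lumbar cord (adjusted p = 1.00), all by edgeR. The edgeR test called 0 genes in each of these 4 comparisons, against 190 in liver, 108 in cervical, 28 in thoracic and 6 in lumbar cord with DESeq2, and 1049, 1356, 327 and 250 genes at an unadjusted p under 0.05. DESeq2 did call CCNI in liver, at -0.52 with an adjusted p of 0.0237, and in cervical cord, at -0.62 with an adjusted p of 0.00297. In a 2-sided exact permutation test of CCNI alone, each of these tissues gave p = 0.0286, the smallest that 4 against 4 libraries can give. Adjusting over the 5 tests of liver and cord left each at 0.0286. That adjustment adds nothing, because all 5 tie at the smallest value and the tests share animals. The same animals also gave ganglia that chose the gene, so these p-values are not independent of the choice.

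With the counts of the 3 cord regions summed per animal, CCNI averaged 120.2 ± 4.73 CPM in controls and 81.2 ± 2.33 CPM in treated animals (SD, n = 4 each). The log2 fold change was -0.57 ± 0.11, with an adjusted p of 0.765 in edgeR, and the exact permutation p was again 0.0286. In this comparison edgeR called 0 genes and DESeq2 57, and 524 had an unadjusted p under 0.05. All 4 treated sums lay below all 4 control sums, as for 1.43% of genes. Fitting the 24 cord libraries together in limma, with animal as a random block, gave -0.56 with an adjusted p of 0.0151. Whether liver and cord differ from the ganglia in the size of the change was not tested, since the ganglion change chose the gene.

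CCNI was the 1 gene of 12074 tested in liver and all 3 cord regions for which every treated library lay below every control in each of the 4 tissues (0.00828%). For the 3 cord regions alone, 19 of 13875 genes had that pattern (0.137%). Over all 6 tissues, where the ganglia had chosen the gene, CCNI was again the 1 gene of 12000 (0.00833%), and 0 genes were higher in all 6. The pattern held with median-ratio factors and with TMM within each tissue. With total counts in place of TMM it ended: CCNI then overlapped in thoracic cord, where controls ran from 66.7 to 136 and treated libraries from 50.3 to 91.7 CPM of total counts, and 0 genes had the pattern in the 4 tissues. The tissues share animals, so 4 tissues are not 4 separate samples of the response.

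**Figure D2:**
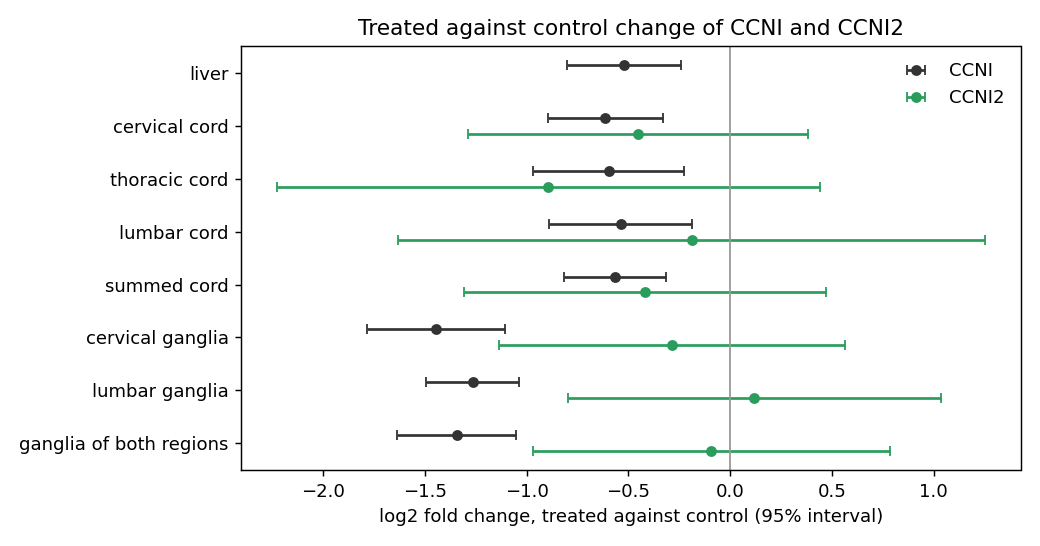
Log2 fold change of CCNI and CCNI2, treated against control, with 95% intervals (horizontal axis), in each tissue, in cord summed per animal and in ganglia of both regions. CCNI lies between -0.61 and -0.52 in liver and cord and between -1.44 and -1.26 in ganglia, where its values chose the gene; the intervals of CCNI2 all include 0, and CCNI2 was too low to test in liver.

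The direction was the same without the doubtful cord libraries. Without the 2 lumbar libraries that lacked MOG, CCNI differed by -0.60 in lumbar cord and by -0.60 in summed cord, and without the 3 thoracic libraries of high mitochondrial share by -0.55 in thoracic cord. In both sexes the mean was lower in treated animals in every tissue. In liver it went from 138 to 81.9 CPM in males and from 105 to 86.1 CPM in females (n = 2 each), and whether the sexes differ was not tested.

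Markers of other cells also differed between treated and control libraries in these tissues, without a call. In liver the 6 hepatocyte markers summed to 387548 to 426518 CPM in control and 294762 to 328813 CPM in treated libraries. Most of that sum was ALB, with means of 310330 CPM in control and 221321 CPM in treated liver (-0.48 in log2). Of the 6 hepatocyte markers 5 were lower, with a median of -0.19, while CYP3A4 was at 0.21. All 6 lymphocyte markers were higher in treated liver (median 0.96) and all 9 macrophage markers lower (median -0.31). In cord summed per animal, all 6 endothelial and all 5 fibroblast markers were lower in treated animals, with median log2 fold changes of -0.57 and -0.58, and 8 of 9 macrophage and microglia markers were higher (median 0.31). None of these markers passed the test, and their part in the CCNI difference was not tested.

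No treatment difference of CCNI2 was detectable at the depth available. Its product resembles cyclin I and also binds CDK5. In cervical ganglia the control libraries held 0.298, 0.430, 0.411 and 0.484 CPM and the treated ones 0.294, 0.304, 0.336 and 0.367 CPM. In lumbar ganglia the control libraries held 0.469, 0.296, 0.256 and 0.257 CPM and the treated ones 0.504, 0.225, 0.260 and 0.374 CPM. The groups overlapped in both regions.

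**Figure D3:**
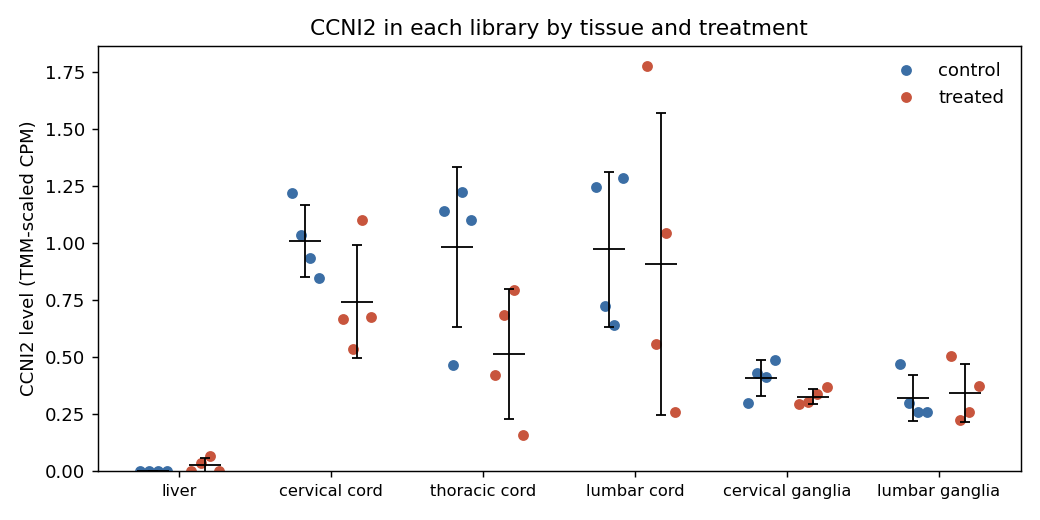
CCNI2 in TMM-scaled CPM (vertical axis) in each of 48 libraries, by tissue and treatment; points are libraries, the horizontal line is the mean and the bar 1 SD of 4 libraries. Cord libraries run from 0.158 to 1.77 CPM and ganglion libraries from 0.225 to 0.504 CPM, with overlapping groups, and liver lies at or near 0.

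Over both ganglion regions the log2 fold change of CCNI2 was -0.09 ± 0.41, with a 95% interval from -0.97 to 0.78 and an adjusted p of 0.961 in limma. With the neuron marker score in the fit it was -0.61, with an adjusted p of 0.824 in limma. The exact permutation test over animals gave p = 0.667. The lumbar change minus the cervical change was 0.26 ± 0.42, with an adjusted p of 1.00 in limma.

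In cord, CCNI2 spread more widely between animals. The control libraries held 1.22, 1.04, 0.934 and 0.845 CPM in cervical cord, and the treated ones 0.664, 0.533, 1.10 and 0.676 CPM. In thoracic cord 3 controls lay between 1.10 and 1.22 CPM with the other at 0.462 CPM, and treated libraries ran from 0.158 to 0.791 CPM. In lumbar cord controls ran from 0.638 to 1.28 CPM and treated libraries from 0.257 to 1.77 CPM, the highest being the treated library without MOG.

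The groups overlapped in all 3 regions. The log2 fold changes were -0.45 ± 0.36 in cervical, -0.89 ± 0.58 in thoracic and -0.19 ± 0.61 in lumbar cord, with adjusted p of 0.609, 0.981 and 1.00 in edgeR. Their intervals include both 0 and the change of CCNI in the same tissue, so CCNI2 could not be shown to differ from CCNI in cord. In lumbar cord even the sign turned when single libraries were left out, to 0.12 without control 4, 0.01 without treated 2 and 0.16 without treated 4. It also turned in lumbar ganglia, from 0.12 to -0.11 without treated 1 and to -0.03 without treated 4.

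For CCNI2 the order of cord and ganglia was the reverse of that for CCNI, with cord above ganglia, and liver lay lowest. Control means were 1.01 ± 0.16 CPM in cervical cord, 0.981 ± 0.35 CPM in thoracic cord and 0.971 ± 0.34 CPM in lumbar cord, against 0.406 ± 0.078 CPM in cervical and 0.320 ± 0.10 CPM in lumbar ganglia (SD, n = 4 each). Lumbar ganglia lay below lumbar cord by -1.60 ± 0.36 on the log2 scale (adjusted p = 0.00324 in edgeR) and cervical ganglia below cervical cord by -1.29 ± 0.36 (adjusted p = 0.00934 in edgeR). The second call was lost without control animal 1, at -1.09 with an adjusted p of 0.0727 in edgeR.

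All 4 control livers held 0 counts of CCNI2, which allows up to 0.109 to 0.122 TMM-scaled CPM per library at a floor of 3 counts. Against the highest of these floors, mean cervical cord was 8.29-fold higher and mean lumbar ganglia 2.63-fold higher. Each mate of a pair counted as 1 read, so counts are not independent. The floor may therefore be too low and these folds too high. Per exonic length, CCNI exceeded CCNI2 by 137 to 302 times in control cervical ganglia and by 68.9 to 111 times in treated ones. In control cervical cord the same ratio was 29.02 to 44.2. Reads in the 399 bases that CCNI2 shares with SEPT8 cannot be told apart, a limit on these ratios and on the CCNI2 levels.

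The genes beside CCNI on chromosome 5 showed no such difference, and none of the tested ones passed in ganglia, where 0.943% of genes did. CCNG2, cyclin G2 and another atypical cyclin, lies 88.9 kb before CCNI and averaged 53.3 CPM in control and 54.7 CPM in treated ganglia. Its log2 fold change was 0.07 ± 0.14 (adjusted p = 0.895 in limma). SEPT11, a septin of the cytoskeleton, lies 7.57 kb after CCNI and averaged 75.4 CPM in control and 90.5 CPM in treated ganglia, with a log2 fold change of 0.26 ± 0.14 (adjusted p = 0.517 in limma).

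Of the 10 nearest named genes, 8 were tested in ganglia. CNOT6L, FRAS1, ANXA3 and SHROOM3 lay between -0.03 and 0.31. CCDC158 was at -0.62 ± 0.31 and SCARB2, a lysosomal membrane protein 812 kb away, at -0.50 ± 0.22, with adjusted p of 0.475 and 0.398 in limma. CXCL13 and MIR548AH were too low to test, with MIR548AH at 0 in all ganglia.

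**Figure D4:**
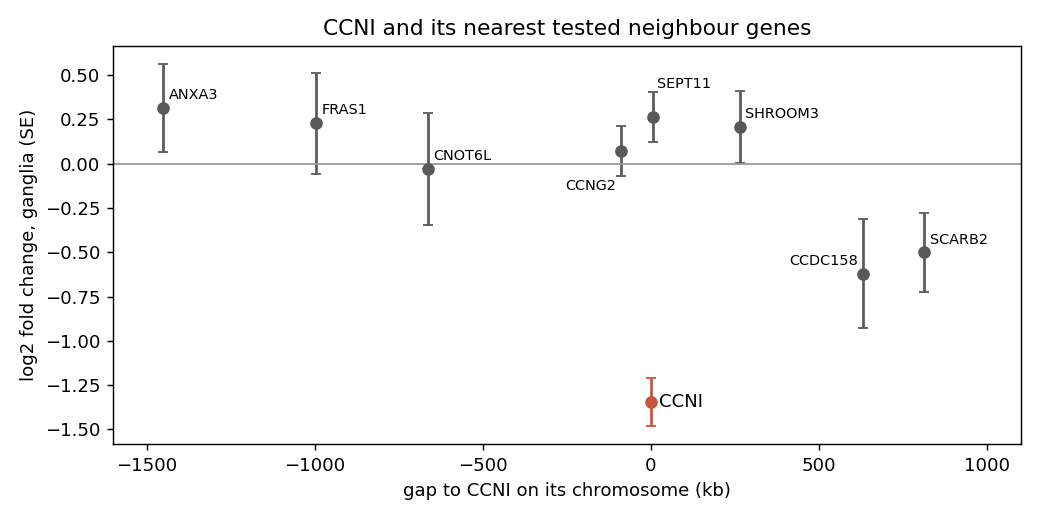
Log2 fold change with SE (vertical axis) of CCNI and of its 8 tested neighbours in ganglia of both regions, by gap to CCNI in kb (horizontal axis, negative before CCNI). CCNI, at -1.34, lies below all 8 neighbours, which range from -0.62 to 0.31.

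No other cyclin passed over both ganglion regions, where 0.943% of all genes did, so 0 calls in lists of this size is near the background. CCNG1, cyclin G1 and a target of p53, changed by 0.11 ± 0.11 (adjusted p = 0.742 in limma) from 205 CPM in controls. Of 10 tested cyclins of the cell cycle 0 passed, with a median log2 fold change of -0.03, and CCND1, the G1 cyclin, was at -0.04 ± 0.41. Of 8 tested cyclins of transcription and splicing 0 passed over both regions, with 7 above 0, a median of 0.17 and a range from -0.47 to 0.33, while the median of all 14535 genes was 0.05. In lumbar ganglia alone, where 4.29% of 14267 genes passed (0.638% upward), CCNT1, the cyclin of the elongation kinase, rose by 0.38 ± 0.09 (adjusted p = 0.0499 in edgeR), and this call was lost when any of the 8 libraries was left out. Of 6 other cyclins 0 passed, with a range from -0.84 to 0.26, and the one with the smallest p was CCNY, a membrane-bound cyclin, at -0.41 ± 0.14 (adjusted p = 0.200 in limma).

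CDK5, the known partner of cyclin I, and its neuronal activators CDK5R1 and CDK5R2 gave no call over both ganglion regions. CDK5 differed by -0.26 ± 0.33, CDK5R1 by -0.29 ± 0.24 and CDK5R2 by -0.20 ± 0.41, with adjusted p of 0.818, 0.699 and 0.891 in limma. Of the 7 tested genes of this group 0 passed, near the 0.943% of all genes, and their median was -0.26. In lumbar ganglia alone CDK5 fell from 80.2 ± 8.40 to 50.2 ± 6.32 CPM (SD, n = 4 each), or by 0.67 in log2 (SE 0.12, adjusted p = 0.0249 in edgeR), with all 4 treated libraries below all controls, as for 9.24% of genes. In cervical ganglia it was at 0.24 ± 0.53, with treated libraries from 48.6 to 199 CPM and controls from 44.3 to 83.7 CPM, and the interaction test detected no difference between the regions, at -0.39 ± 0.33 with an adjusted p of 1.00 in limma. The lumbar call was lost without any one of controls 1, 2 and 3 and treated 3 and 4, with adjusted p from 0.0635 to 0.0882 in edgeR.

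In liver CDK5 differed by 0.01 ± 0.11 and in summed cord by 0.40 ± 0.35, without a call, while CCNI was lower there. The kinases nearest to CDK5, the PCTAIRE and PFTAIRE group, gave 0 calls of 5 over both regions. In lumbar ganglia CDK16 fell by 0.72 on the log2 scale (SE 0.12, adjusted p = 0.0239 in edgeR), a call lost without the same 5 libraries. Of 12 other cyclin-dependent kinases and 6 kinase inhibitors 0 passed over both regions, again near the 0.943% of all genes, with medians of 0.11 and 0.04.

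Genes of proteins that CDK5 is known to phosphorylate in neurons were the group with calls. This list was chosen with earlier results of these data known, so its shares beside those of all genes are a description. Only RNA was measured. Over both regions 6 of 22 tested genes fell and 0 rose, against 0.929% and 0.0138% of all genes, with a median of -0.50. NEFH, the heavy neurofilament, fell by 2.23 (SE 0.43, adjusted p = 0.0271 in limma), from 3209 ± 1296 to 624 ± 205 CPM (SD, n = 8 each). MAP1B, a microtubule protein of axons, fell by 1.16 (SE 0.17, adjusted p = 0.00703 in limma). Also among the 6 were DNM1 and SYNJ1, which recycle synaptic vesicles, and DPYSL2, which binds tubulin, at -1.24, -0.98 and -0.78.

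**Figure D5:**
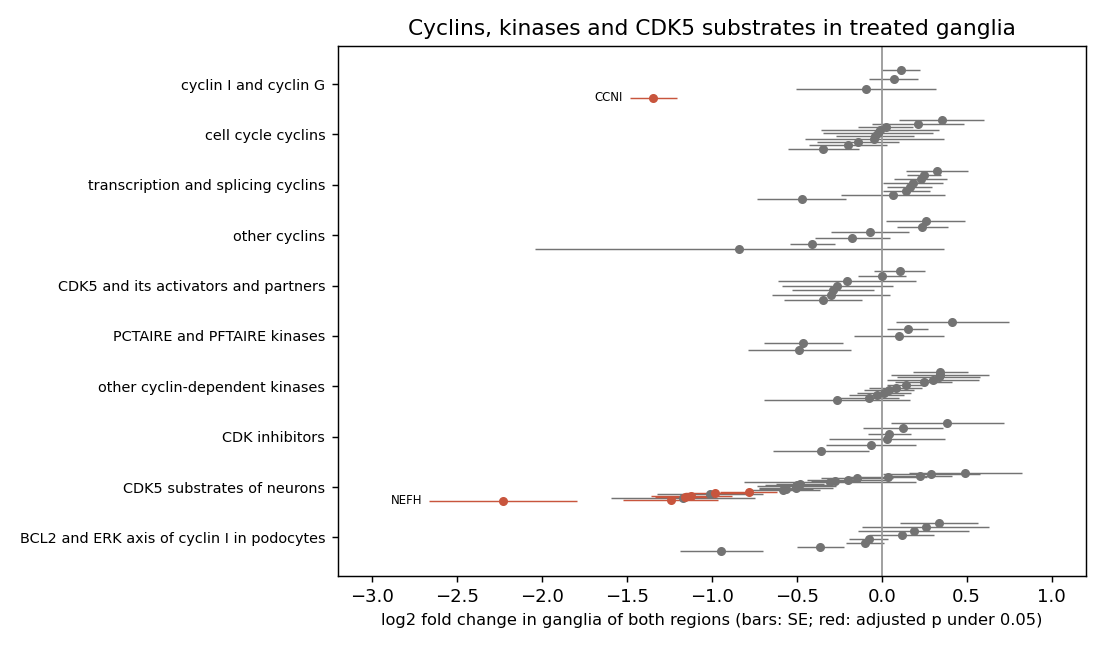
Log2 fold change with SE (horizontal axis) of cyclins, cyclin-dependent kinases, their inhibitors and known CDK5 substrates in ganglia of both regions; red marks an adjusted p under 0.05. CCNI lies at -1.34, and the other red points are 6 of 22 CDK5 substrates, from NEFH at -2.23 to DPYSL2 at -0.78.

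In lumbar ganglia alone 11 of the 22 fell, against 3.65% of genes. In the same lumbar libraries 7 of the 11 sensory neuron markers were lower and 4 higher, and their part in these calls was not tested. With the neuron marker score in the fit 0 of the 22 passed and all calls went from 137 to 14, while NEFH was at -1.67 and MAP1B at -0.93. The count over both regions also rested on single control animals: it was 0 without control animal 1, 2 or 3, 7 without control animal 4, and from 2 to 9 without any one treated animal. In the lumbar region it was 2 without control 1, 2 or 3 and from 5 to 10 without any one of the others.

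The genes of the BCL2 and ERK route described for cyclin I in podocytes gave 0 calls of 8 over both regions, near the 0.943% of all genes, with a median of 0.02. BCL2, the survival factor, was at 0.26 ± 0.37 and BCL2L1, its close relative, at -0.10 ± 0.11. MAPK3, the kinase ERK1, was at -0.94 ± 0.25 with an adjusted p of 0.0877 in limma. In lumbar ganglia MAPK3 fell from 469 ± 43.8 to 223 ± 45.8 CPM (SD, n = 4 each), by 1.07 on the log2 scale (SE 0.16, adjusted p = 0.0172 in edgeR), and this was lost without control 1, 2 or 3 or treated 3 or 4, with adjusted p from 0.0524 to 0.0613 in edgeR.

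The genes whose level was most like that of CCNI across the 24 control libraries were EIF4G2, a translation factor (Pearson r of log2 CPM 0.963), HSP90AA1, a chaperone (0.957), and PREP, a peptidase (0.957), out of 13409 compared. RASSF5, CCDC172, WASHC5, SMIM28, SLC10A2, TRAPPC3L and POU4F3 followed, from 0.949 down to 0.933. In treated ganglia EIF4G2 differed by -0.25 ± 0.11 and PREP by -0.48 ± 0.16, without a call, while HSP90AA1 fell by 0.99 (SE 0.14, adjusted p = 0.00589 in limma). These libraries share animals and fall into tissues, so r here reflects the tissue order described above.

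Across the 16 ganglion libraries, which fall into treated and control, PSAP, the precursor of the lysosomal saposins, was most like CCNI (0.965). KCTD2, MXRA7, RNF157, LAMP1, PI4KA, CADM3, WDTC1, QSOX1 and SRPRA followed, from 0.965 down to 0.955, out of 12853 genes. Their log2 fold changes in treated ganglia ran from -1.32 for CADM3 to -0.35 for SRPRA. CCNI and CCNI2 had an r of -0.14 over the control libraries and 0.13 over the ganglion libraries.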

How the data were processed

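The authors deposited raw counts per gene name, made with featureCounts 1.4.6-p1 on Ensembl release 94 of Macaca_fascicularis 5.0 per the file headers, after STAR 2.5.3a per the submitters' processing notes. Pairs and strand were not used in counting per the file headers, so each mate of a 50 bp pair counted as 1 read.

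Groups follow the tissue and dose labels, and animals follow the identifiers in the labels. Each tissue, and cord summed per animal, was tested in edgeR 4.0.16 (R 4.3.3; TMM, filterByExpr, robust quasi-likelihood fit, sex as covariate). Ganglia of both regions were tested in limma 3.58.1 by voom, adjusting for region and sex, and duplicateCorrelation (statmod 1.5.0) entered animal as a random block, with a correlation of 0.718. The interaction came from the same model. The 15 pairs of control tissues were tested in edgeR, where animal was a fixed block. The threshold was 0.05 on p-values adjusted by Benjamini-Hochberg over all genes tested. Single genes were also compared by 2-sided exact permutation tests over libraries or, for both ganglia, animals, whose smallest p is 0.0286 for 4 against 4 and 0.00476 for 4 against 6. Alternatives were DESeq2 1.42.0, limma voom, other scalings and filters, blocks, a joint fit, and leaving out replicates. Scripts were checked on simulated counts.

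The members and gene lists were chosen with earlier results of these data known. Named genes are CCNI, CCNI2, CDK5, CDK5R1, CDK5R2, CCNG1 and CCNG2, list members that passed in any treated against control comparison or otherwise up to 3 with the smallest p in ganglia, the 10 genes most like CCNI by Pearson r (mean of at least 1 CPM, prior count 2) over 24 control and over 16 ganglion libraries, the 5 nearest genes on each side, and the 4 next by p. A gene that this rule names is counted in its list but not reported here. SD is over libraries, SE and 95% intervals are of the fits across libraries, and the floor of 3 counts covers counting error only. Replicate numbers met the rule for pairing in lumbar cord only, where same-numbered deviations correlated at 0.92, 0.19, 0.79 and 0.50 (0.60 on average, against -0.10 for other numbers), although the numbers join different animals.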

Additional observations from a re-analysis of the deposited data

Results flagged for a closer look

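In 24 groups of 4 libraries checked for CCNI and CCNI2, 3 held a library set apart from the other 3, where chance gives about 1 in 20 groups. Treated thoracic cord library 4 held 61.3 CPM of CCNI, against 78.8 to 82.3 CPM in the others, and is one of the 3 with over 30% mitochondrial counts (36.4%). Control cervical ganglion library 4 held 204 CPM of CCNI, against 266 to 277 CPM. Control thoracic cord library 2 held 0.462 CPM of CCNI2, against 1.10 to 1.22 CPM. Without that library the thoracic CCNI2 change was -1.15, against -0.89 with it.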

How the results depend on the processing

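CCNI was lower in treated animals under every alternative run, from -0.59 to -0.41 in liver, -0.67 to -0.56 in cervical, -0.71 to -0.51 in thoracic and -0.60 to -0.49 in lumbar cord, -0.60 to -0.56 in summed cord, -1.50 to -1.36 in cervical, -1.32 to -1.21 in lumbar and -1.41 to -1.14 in ganglia of both regions (the last value with the neuron score). Its adjusted p passed in liver with DESeq2 (-0.52), in cervical cord with DESeq2 (-0.62) and in 1 fit of all 48 libraries (-0.62), in thoracic cord in that fit (-0.61), and in summed cord with DESeq2 (-0.58) and in limma over 24 libraries (-0.56). By total counts CCNI lay above liver in cervical (1.11), thoracic (0.77) and lumbar cord (0.99) and in cervical (2.29) and lumbar ganglia (2.10), and 0 genes were without overlap in liver and cord. The cause was not tested.

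Genes passing depended on the method. DESeq2 called 190 in liver, 108, 28 and 6 in cervical, thoracic and lumbar cord, 57 in summed cord, 225 in cervical and 1738 in lumbar ganglia, and 1767 in both regions without the animal block. The fit of 48 libraries called 23 in liver, 11 in cervical and 18 in thoracic cord, and 60 in cervical and 64 in lumbar ganglia. No filter gave 2 in cervical cord, and limma over 24 cord libraries gave 24. The replicate block gave 206 in lumbar ganglia, with 4 of 22 CDK5 substrates, and 46 in both regions, with 2. In both regions, sums per animal gave 13, no animal block 1000 and the neuron score 14, with 2, 13 and 0 substrates. In lumbar ganglia the fit of 48 libraries called 0 substrates.

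Leaving out single animals gave 3 to 963 genes in both regions, 18 to 670 in lumbar and 0 to 2 in cervical ganglia. It gave CCNI differences of -0.11 to 0.0124 for cervical cord and -0.33 to -0.11 for lumbar cord against liver, -0.16 to 0.0544 for thoracic against cervical cord and -0.28 to 0.0386 for lumbar against thoracic cord. For CCNI2 it gave -0.67 to 0.16 in lumbar cord, -0.11 to 0.35 in lumbar ganglia, -0.32 to 0.0579 for lumbar against cervical, -0.10 to 0.33 for lumbar against thoracic and -0.30 to 0.16 for thoracic against cervical cord. CCNI2 reversed to -0.0125 in lumbar against thoracic cord without the library lacking MOG. With the neuron score CDK5R1 reached 0.0609, CDK5R2 0.51 and CCNG2 -0.0645, and leaving out single animals moved CDK5R2 from -0.36 to 0.0168. Depth limits CCNI2, with at most 96 counts a library.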
